A study of Homo sapiens with 6 samples.

Results

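Processed pseudogenes are copies of messenger RNAs that were reverse transcribed and inserted elsewhere in the genome, in human cells mostly by the enzymes of LINE-1 retrotransposons. Such a copy usually has no introns and no promoter of its own, and it carries the base changes that have built up since it was inserted. Strongly transcribed genes of the germ line, such as those of ribosomal proteins, GAPDH, EEF1A1, NPM1 and the keratins KRT8 and KRT18, have left many copies. Because copy and parent share long stretches of sequence, a short read from one can match the other, and the value given to a pseudogene may hold reads of its parent. The question here was how the processed pseudogenes measured in OVCAR3 cells changed beside the genes they were copied from.

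The members were the 4164 genes, of 27104 in all, whose type in the authors' deposited table is processed pseudogene. A parent was taken from the name: the protein-coding gene left when the final P and its number are removed (KRT18P48 gives KRT18). That gave 2229 pseudogenes of 764 parents. Of the other 1935 members, 1786 had only a clone name (such as AC139085.1) and 149 had another name with no such parent. As a check of the names, each member was aligned to all protein-coding transcripts, and the best match was the parent by name for 2184 of 2226 (98.1%). At or above a mean of 1 FPKM (fragments per kilobase of transcript, scaled to library size) over the 6 libraries were 1654 members, which were tested. The other 2510 had between 6 and 943 reads over all 6 libraries, with a median of 23, and are not described further except where named.

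OVCAR3 is an ovarian cancer cell line, used here at passages 20 to 25. It was transfected in triplicate with a vector for DAB2IP, a Ras GTPase-activating scaffold protein, giving the DAB2IP O/E-labelled libraries, or with the empty vector as control. The labels do not say whether the 3 cultures of a group were otherwise separate, so the p-values reflect variation among these 6 libraries alone, and that variation could be technical. DAB2IP itself went against the labels. It had 5.74, 5.02 and 5.74 FPKM in the 3 DAB2IP O/E-labelled libraries, against 7.49, 7.76 and 8.01 FPKM in the empty vector libraries. The log2(FPKM + 1) change was -0.43 ± 0.06 (SE, n = 3 each; limma, adjusted p = 0.00548). Every direction given here is therefore the DAB2IP O/E-labelled libraries relative to the empty vector libraries.

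Polyadenylated RNA was sequenced, and the whole reads recovered from the deposited values numbered 24743563 to 35434533 in the DAB2IP O/E-labelled libraries and 20445867 to 28116259 in the empty vector libraries. Processed pseudogenes took 2.13% ± 0.04 of the reads in the DAB2IP O/E-labelled libraries and 1.98% ± 0.10 in the empty vector libraries (SD, n = 3 each). By reads the groups did not overlap (2-sided exact permutation test, p = 0.1, the smallest that 3 against 3 allows). The shares were 2.12, 2.17 and 2.09% in the DAB2IP O/E-labelled libraries, against 1.87, 2.03 and 2.04% in the empty vector libraries. The empty vector library at 1.87% lay furthest from the rest. By summed FPKM the groups overlapped. The members held 10.35, 10.76 and 10.18% in the DAB2IP O/E-labelled libraries, against 8.92, 10.18 and 10.26% in the empty vector libraries. All 12 markers of ovarian carcinoma epithelium were at or above 1 FPKM, among them KRT8 and KRT18, and their summed level was 1344 to 1423 FPKM in the DAB2IP O/E-labelled libraries and 1036 to 1097 FPKM in the empty vector libraries. The extraction text names adipocytes, and 0 of the 7 adipocyte markers in the table, of 10 listed, reached 1 FPKM. Of the markers of other cell types in the table, COL1A1 of 4 for fibroblasts and CD68 of 4 for leukocytes reached 1 FPKM, with 6 listed for each, and 0 of 4 for endothelium did. In such bulk samples fewer cells of a type and less RNA per cell cannot be told apart.

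How much a copy differs from its parent decides how well their reads can be separated, so stretches of coding sequence are set out here for pairs described further on. Positions are in GRCh38 and the letters are from the GENCODE 29 transcripts, in the direction of transcription. Capitals mark the bases of a copy that differ from the parent. KRT18 and KRT18P48 rose together. The stretch begins at base 256 of the KRT18 coding sequence (gene on chromosome 12, plus strand, chr12:52948871-52952901), and KRT18P48 (minus strand, chrX:153605005-153605094) has 6 differences in 90 bases.
KRT18: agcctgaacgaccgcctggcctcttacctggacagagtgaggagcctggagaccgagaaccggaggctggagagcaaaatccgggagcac
KRT18P48: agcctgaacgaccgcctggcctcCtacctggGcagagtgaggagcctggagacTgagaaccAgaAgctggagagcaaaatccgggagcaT

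GAPDH did not pass the test while GAPDHP65 and GAPDHP38 were higher. The stretch begins at base 343 of the GAPDH coding sequence (plus strand, chr12:6533927-6538374). GAPDHP65 (minus strand, chrX:46440282-46440371) has 5 differences and GAPDHP38 (plus strand, chr19:46558977-46559066) has 9.
GAPDH: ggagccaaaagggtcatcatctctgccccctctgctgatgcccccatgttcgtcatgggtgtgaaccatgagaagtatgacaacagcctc
GAPDHP65: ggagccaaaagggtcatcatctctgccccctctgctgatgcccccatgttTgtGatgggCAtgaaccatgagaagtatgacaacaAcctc
GAPDHP38: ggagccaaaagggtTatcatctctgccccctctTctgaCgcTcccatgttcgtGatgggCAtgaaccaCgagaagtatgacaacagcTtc

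For EEF1A1 a closer and a more distant copy are shown, which do not span the whole range of identity. From base 798 of its coding sequence (minus strand, chr6:73515750-73523797), EEF1A1P5 (plus strand, chr9:133020283-133020372) has 0 differences in 90 bases and EEF1A1P1 (plus strand, chr21:23390405-23390494) has 6. A read lying inside this stretch cannot be assigned to EEF1A1 rather than EEF1A1P5.
EEF1A1: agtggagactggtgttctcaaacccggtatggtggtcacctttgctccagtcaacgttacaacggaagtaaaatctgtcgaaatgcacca
EEF1A1P5: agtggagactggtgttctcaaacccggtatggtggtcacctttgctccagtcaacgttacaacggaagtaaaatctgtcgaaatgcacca
EEF1A1P1: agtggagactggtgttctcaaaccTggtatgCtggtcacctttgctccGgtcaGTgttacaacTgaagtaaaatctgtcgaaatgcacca

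RPL21P11 and LDHAP7 fell while their parents did not pass the test. RPL21P11 (minus strand, chr14:90366962-90367021) has 1 difference in 60 bases from base 159 of the RPL21 coding sequence (plus strand, chr13:27251309-27256691). LDHAP7 (minus strand, chr2:84777914-84778003) has 6 in 90 bases from base 333 of the LDHA coding sequence (plus strand, chr11:18394388-18408425).
RPL21: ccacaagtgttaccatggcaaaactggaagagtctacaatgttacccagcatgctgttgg
RPL21P11: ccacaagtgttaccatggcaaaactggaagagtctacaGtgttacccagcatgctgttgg
LDHA: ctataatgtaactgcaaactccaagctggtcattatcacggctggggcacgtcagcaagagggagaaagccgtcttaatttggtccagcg
LDHAP7: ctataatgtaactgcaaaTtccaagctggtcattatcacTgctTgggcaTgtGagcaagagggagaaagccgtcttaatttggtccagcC

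The strongest members were near-identical copies of translation genes. EEF1A1P5 and EEF1A1P6, copies of the gene of elongation factor eEF1A1, had means of 944 and 778 FPKM, and the parent EEF1A1 had 1012 FPKM. They were 99.7% and 99.4% identical to the parent over the aligned bases. RPL41P1, with an 81-base annotated transcript identical to RPL41, had 678 FPKM, against 474 FPKM for RPL41 itself, which encodes a very small ribosomal protein. FTH1P2, a copy of the ferritin heavy chain gene FTH1, had 502 FPKM and FTH1 had 2373 FPKM. The other 6 of the 10 strongest were clone-named and had as best match RPL22, RPS2, RPL41 (3 of them) and RPLP0, genes of the cytosolic ribosome, at 98.04 to 100% identity. None of these 10 passed the test described next (adjusted p of 0.0629 to 0.971 in limma). In the authors' deposited table EEF1A1P6 was lower in the empty vector libraries, with an adjusted p of 0.00344. The median of the 1654 tested members was 3.80 FPKM, with quartiles of 1.84 and 12.5 FPKM. Only 58 were above 100 FPKM, and the median tested member had about 71 reads per library.

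Among the tested members, 196 of 1654 (11.9%) passed the threshold of an adjusted p of 0.05 in limma, 136 higher and 60 lower in the DAB2IP O/E-labelled libraries. Over all 14761 genes tested 18.5% passed (9.29% higher, 9.17% lower), so the share was below the background, as was the share of lower calls (3.63%), while that of higher calls (8.22%) was close to it. Among protein-coding genes 19.9% passed, among the 157 unprocessed pseudogenes tested 8.28% and among 94 transcribed processed pseudogenes 12.8%. At an unadjusted p under 0.05 were 480 members. The groups did not overlap in 455 members (27.5%), against 40.4% of all genes tested. The median log2 ratio of group means was 0.08 for the members and -0.0011 for all genes tested, and 986 members (59.6%) lay above 0, against 49.9% of all genes. The members' median absolute log2 ratio was 0.22, against 0.15 for all genes, while the members passed less often. Their median level was lower, at 3.80 FPKM against 5.85 FPKM for all genes tested. How far the lower level widened the ratios was not tested, so the larger ratio is not read as a larger change. Leaving out the first, the second or the third DAB2IP O/E-labelled library left 68, 90 and 64 calls, and leaving out the first, the second or the third empty vector library left 139, 93 and 317. In all 6 of these refits 36 members passed.

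To set copies beside parents, log2 ratios of group mean FPKM without a pseudocount were used, since a pseudocount shrinks the changes of low copies more than those of high parents. In 941 pairs, of 372 parents, copy and parent were both tested. Copy and parent moved in the same direction in 647 pairs (68.8%), although 59.4% of the copies and only 45.2% of the parents lay above 0. Across pairs Pearson's r of the 2 log2 ratios was 0.61 and Spearman's rank correlation 0.54, a description only, since pairs share parents, reads and libraries. Pearson's r was 0.55 without the 2 copies of FABP5. Where the parent rose (75 pairs of 29 parents), 33 copies rose, 0 fell and 72 lay on the parent's side. Where the parent fell (107 pairs of 53 parents), 16 copies fell, 0 rose and 85 lay on the parent's side. Where the parent did not pass (759 pairs of 290 parents), 48 copies rose and 20 fell. The share of copies past the test was 44% beside risen parents, 15.0% beside fallen ones and 8.96% beside the others. Over all genes tested it was 18.5% and over the members 11.9%, so only the first of these shares lay above the background. The first empty vector library stood apart in the copy-to-parent ratio, as described further on, and without it 20 of 51 copies rose with a risen parent and 11 of 75 fell with a fallen one. No pair passed in opposite directions, and without the third empty vector library 4 did.

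**Figure D1:**
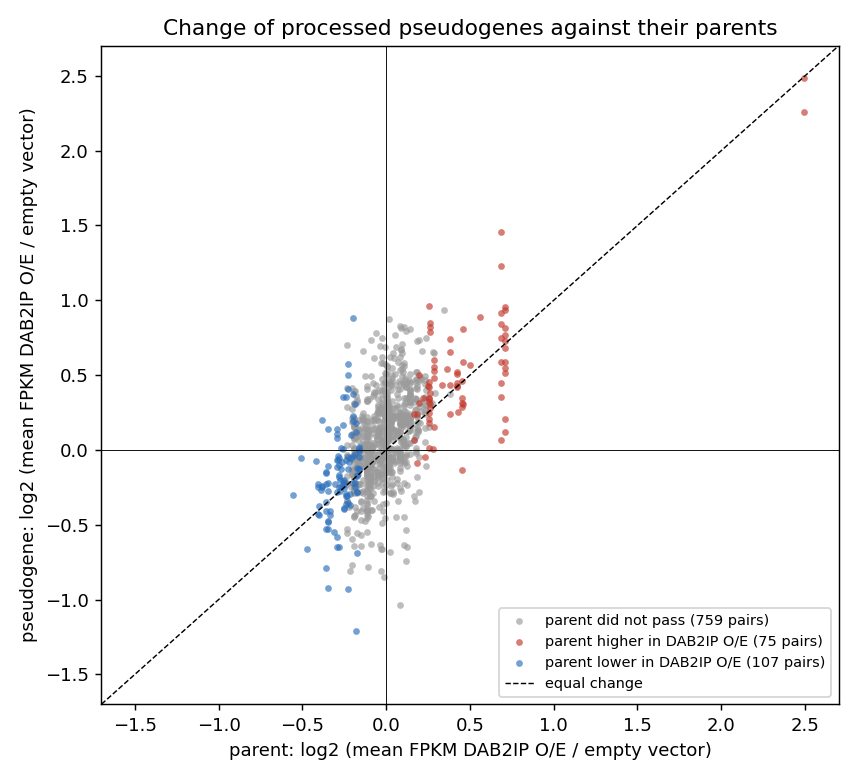
Each point is 1 of 941 pairs, with the parent's log2 ratio of mean FPKM (DAB2IP O/E over empty vector) on the x axis and the pseudogene's on the y axis, coloured by the parent's test; the dashed line marks equal change. Pairs whose parent rose lie mostly above 0, pairs whose parent fell mostly below, and the 2 copies of FABP5 lie at the far upper right.

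Of the 117 copies that passed the test within these pairs, 49 moved with a parent that passed in the same direction. The other 68 had a parent that did not pass, and were 8.96% of such pairs, below the background. Of those 68, 15 had a parent on the other side of 0. Taking the copy as a percentage of its parent in each library, the groups did not overlap in 10 of 48 pairs in which both passed (1 copy with a library at 0 was left out). They did not overlap in 61 of the 68 pairs in which the parent did not pass, where the choice of pairs largely fixes a shifted ratio, so that nothing is read from this count. Over all 939 pairs with no library at 0 the groups did not overlap in 247 (26.3%). Each of those comparisons has an exact permutation p of 0.1, the smallest possible here.

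Of the 21 tested copies of keratin genes 14 rose. With no filter on low values 7 did, and 10 did with same-numbered libraries taken as a block. KRT8 and KRT18 encode the paired intermediate filament proteins of simple epithelia, and all 21 copies lay above 0. KRT18 had 399, 395 and 401 FPKM in the DAB2IP O/E-labelled libraries, against 229, 247 and 256 FPKM in the empty vector libraries. Its log2(FPKM + 1) change was 0.71 ± 0.06 (SE; limma, adjusted p = 0.000707). The 11 tested copies of KRT18, of 51 in the table, were weak and summed to 38.0, 35.7 and 36.9 FPKM in the DAB2IP O/E-labelled libraries, against 22.8, 26.3 and 21.7 FPKM in the empty vector libraries. All 11 lay above 0, 7 rose, and their log2 ratios ran from 0.12 to 0.95 with a median of 0.68, against 0.71 for the parent. Together they held 9.03 to 9.54% of the KRT18 level in the DAB2IP O/E-labelled libraries and 8.48 to 10.7% in the empty vector libraries, which overlap, so the copies as a sum did not move away from the parent. The annotated spans of KRT8 and KRT18 overlap on opposite strands, and whether the counting used strand is not given in the sources used here.

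KRT8 had 237, 211 and 230 FPKM in the DAB2IP O/E-labelled libraries, against 133, 140 and 149 FPKM in the empty vector libraries. Its 9 tested copies summed to 88.3, 78.5 and 83.1 FPKM, against 50.1, 56.2 and 51.4 FPKM in the empty vector libraries. Of the 9, 7 rose. KRT8P3 on chromosome 8, the strongest, averaged 46.5 ± 1.84 FPKM in the DAB2IP O/E-labelled libraries and 27.7 ± 0.709 FPKM in the empty vector libraries (SD, n = 3 each), which is 20.2% of the KRT8 level, and its log2 change was 0.73 ± 0.05 (SE; limma, adjusted p = 0.00031). KRT8P8, on the X chromosome and 92.5% identical to KRT8, moved further than its parent. It had 4.42, 3.92 and 3.95 FPKM in the DAB2IP O/E-labelled libraries, against 1.35, 1.78 and 2.12 FPKM in the empty vector libraries, a log2 ratio of 1.23 against 0.68 for KRT8. KRT8P51 had 1.93, 1.64 and 3.77 FPKM, against 0.914, 0.993 and 0.772 FPKM in the empty vector libraries, with the third DAB2IP O/E-labelled library well above the rest. Without single libraries, from the first labelled DAB2IP O/E to the third empty vector one, 3, 5, 3, 7, 5 and 5 copies of KRT18 and 2, 5, 3, 3, 4 and 3 copies of KRT8 rose. In these refits copies below 0 appeared only without the third empty vector library, 1 of each parent. KRT8P3, KRT8P8, KRT18P8 and KRT18P11 passed in all 6. KRT18P48 had 5.26, 5.93 and 5.27 FPKM in the DAB2IP O/E-labelled libraries, against 1.76, 3.09 and 3.64 FPKM in the empty vector libraries, and its adjusted p of 0.0236 lay between 0.00936 and 0.0707 in the refits without 1 library.

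**Figure D2:**
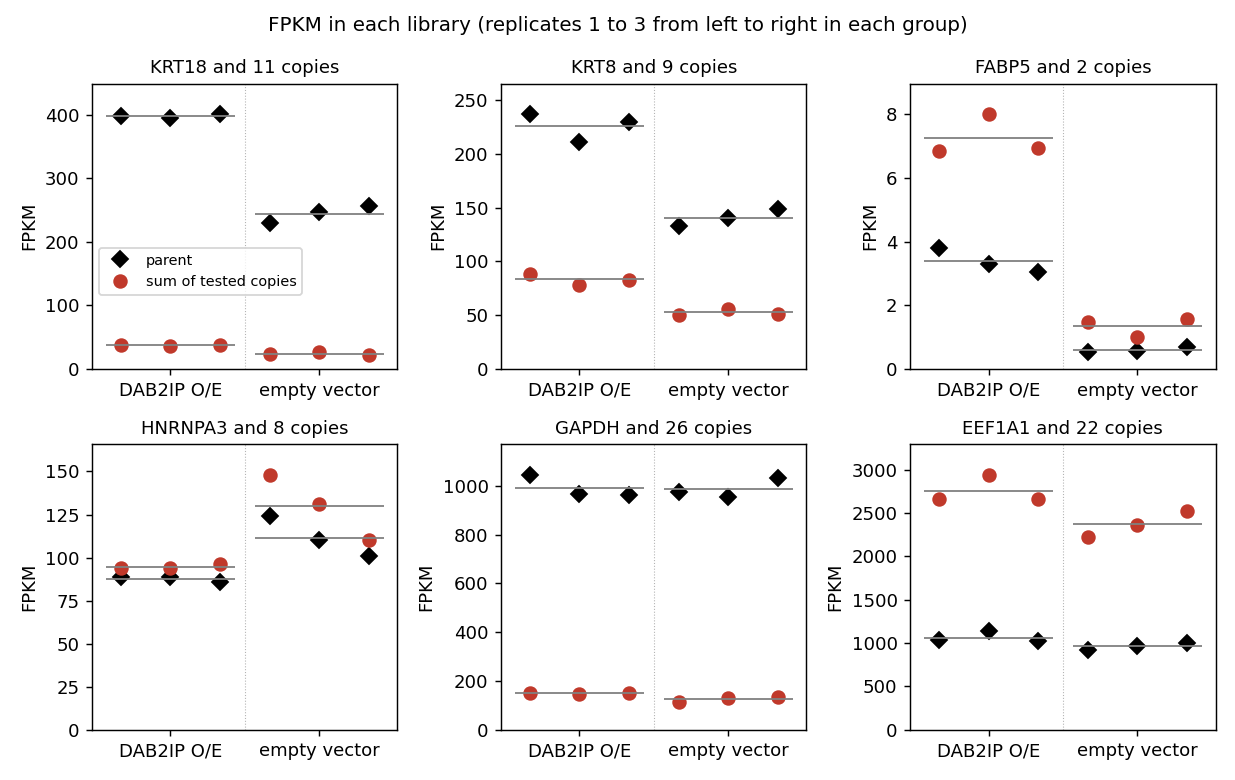
FPKM in each of the 6 libraries, DAB2IP O/E on the left and empty vector on the right of each panel, for 6 parents (black diamonds) and the sum of their tested pseudogenes (red circles); grey lines mark group means. The sums for KRT18, KRT8 and FABP5 lie higher in DAB2IP O/E with their parents, those for HNRNPA3 lower, and those for GAPDH and EEF1A1 lie higher beside parents that did not pass the test.

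The copies of FABP5, which encodes an epidermal fatty acid binding protein, had the largest median log2 ratio of the 372 families, at 2.37. FABP5P7, on chromosome 11, is identical to its parent over 405 bases. It had 5.42, 5.90 and 5.39 FPKM in the DAB2IP O/E-labelled libraries, against 0.742, 0.672 and 1.57 FPKM in the empty vector libraries. These values rest on 79, 69 and 55 reads, against 6, 6 and 18 reads. Its log2 ratio of 2.49 was almost that of FABP5 (2.496), which had 3.80, 3.28 and 3.04 FPKM in the DAB2IP O/E-labelled libraries, against 0.531, 0.567 and 0.696 FPKM in the empty vector libraries. On the log2(FPKM + 1) scale FABP5P7 changed by 1.75 ± 0.16 (SE; limma, adjusted p = 0.00117). Its level was 165% of the parent's on average, and the percentage overlapped between groups (143, 180 and 177% in the DAB2IP O/E-labelled libraries, against 140, 118 and 225% in the empty vector libraries).

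FABP5P1, on chromosome 13 and 98.5% identical to FABP5, had 1.42, 2.105 and 1.55 FPKM in the DAB2IP O/E-labelled libraries, against 0.732, 0.331 and 0 FPKM in the empty vector libraries, from 21, 25 and 16 reads against 6, 3 and 0. It passed the test (limma, adjusted p = 0.0154), but not without the second or the third DAB2IP O/E-labelled library, where the adjusted p reached 0.0507. FABP5P2 was below the filter, with 23, 14 and 12 reads in the DAB2IP O/E-labelled libraries, against 1, 2 and 2 reads in the empty vector libraries. In the authors' deposited table, whose fold change runs empty vector over DAB2IP O/E, its log2 fold change was -2.92 with an adjusted p of 0.00611.

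Other parents that rose had copies that rose beside them. All 4 tested copies of THAP12, a gene of the THAP zinc finger family, passed higher, with log2 ratios of 0.42 to 0.52 beside 0.43 for THAP12. Their sum was 42.7, 46.2 and 44.3 FPKM in the DAB2IP O/E-labelled libraries, against 31.6, 33.2 and 32.1 FPKM in the empty vector libraries. The number that passed was 2, 2, 3, 4, 2 and 3 in the 6 refits, in the order given for the keratins. RPS3P6, a copy of the ribosomal protein gene RPS3, had 22.8, 24.8 and 24.2 FPKM in the DAB2IP O/E-labelled libraries, against 11.7, 13.5 and 15.9 FPKM in the empty vector libraries. It rose by 0.77 ± 0.10 on the log2(FPKM + 1) scale (SE; limma, adjusted p = 0.00395) beside 0.46 ± 0.07 for RPS3. TMSB4XP8, a 135-base copy of the thymosin beta 4 gene, an actin monomer binding protein, had 113, 127 and 132 FPKM in the DAB2IP O/E-labelled libraries, against 75.7, 71.9 and 88.8 FPKM in the empty vector libraries. Its log2 ratio was 0.66 and that of TMSB4X 0.38. RPS3P6 and TMSB4XP8 passed in all 6 refits, and TMSB4X itself in 2. RPL10 and its 8 tested copies all lay above 0, with 2 copies past the test and an adjusted p of 0.042 in limma for the parent. Without the third empty vector library 3 copies and RPL10 passed, while in the other 5 refits, and with the library medians set equal, neither RPL10 nor any copy did.

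Among parents that fell, HMGB1 and HNRNPA3 had the most copies that passed. HMGB1 encodes an abundant DNA-bending chromatin protein, and all 6 of its tested copies lay below 0, with 4 past the test. HMGB1P3, which did not pass, aligned to SP100 better (100%) than to HMGB1 (91.7%). HMGB1P10, on chromosome 22, had 34.3, 35.5 and 35.1 FPKM in the DAB2IP O/E-labelled libraries, against 43.4, 45.1 and 44.6 FPKM in the empty vector libraries, a log2 change of -0.34 ± 0.04 (SE; limma, adjusted p = 0.00319). HMGB1 itself had 39.9, 43.2 and 40.8 FPKM, against 53.7, 53.5 and 51.9 FPKM in the empty vector libraries, and its log2 change was -0.35 ± 0.05. HMGB1P6 was at 206% of the parent's level and fell less, by a log2 ratio of -0.23 against -0.36 for HMGB1. HMGB1P1 and HMGB1P4 also fell, HMGB1P4 from 30 to 68 reads per library. Between 2 and 3 of these 4 kept their call in each refit without 1 library. TCEA1P2, a copy of the transcription elongation factor gene TCEA1, was 99.7% identical to it. It had 13.3, 13.0 and 11.7 FPKM in the DAB2IP O/E-labelled libraries, against 20.9, 19.6 and 19.9 FPKM in the empty vector libraries. Its log2 ratio was -0.66 beside -0.47 for TCEA1, both lower in all 6 refits.

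HNRNPA3, a gene of an RNA-binding protein, had 88.7, 88.6 and 85.9 FPKM in the DAB2IP O/E-labelled libraries, against 124, 110 and 100.8 FPKM in the empty vector libraries. Its 8 tested copies summed to 93.9, 93.6 and 96.0 FPKM, against 148, 131 and 110 FPKM in the empty vector libraries, and the first empty vector library was the highest for parent and copies alike. Of the 8 copies, 7 lay below 0 and 4 passed, HNRNPA3P1, HNRNPA3P3, HNRNPA3P5 and HNRNPA3P6. The 1 above 0 was HNRNPA3P7. It aligned to HNRNPA1, which also lay below 0 (log2 ratio -0.10), better (89.9%) than to HNRNPA3 (70.2%). These calls were thin: leaving out any library labelled DAB2IP O/E or the second empty vector library left 0 of them and ended the call of HNRNPA3, while 3 copies fell without the first empty vector library and 5 without the third.

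FDPS, which encodes farnesyl diphosphate synthase, fell while its copies did not follow. The parent had a log2 ratio of -0.20 (limma, adjusted p = 0.0286), and 4 of its 6 copies lay above 0, none at an unadjusted p under 0.05. The call of FDPS ended without any one of the 6 libraries. In 17 of the 19 families with 3 or more tested copies and a parent that passed, the median copy lay on the parent's side.

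The families with the most tested copies had parents that did not pass. GAPDH, the glycolytic enzyme gene often used as a reference, had 26 tested copies and 1045, 966 and 964 FPKM in the DAB2IP O/E-labelled libraries, against 976, 954 and 1033 FPKM in the empty vector libraries. Its copies summed to 151, 146 and 151 FPKM, against 112, 132 and 135 FPKM in the empty vector libraries, so the groups of sums did not overlap while those of the parent did. Of the 26, 25 lay above 0 (23 without the first empty vector library, 24 or 25 without any other) and 3 passed, GAPDHP38, GAPDHP33 and GAPDHP65. The copies made 14.5, 15.1 and 15.6% of the parent level in the DAB2IP O/E-labelled libraries, against 11.5, 13.8 and 13.1% in the empty vector libraries, the first empty vector library being the lowest. Refits without 1 library left 0, 1, 0, 1, 0 and 4 calls.

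EEF1A1 had 22 tested copies, of which 21 lay above 0 and 8 passed. The parent had 1032, 1135 and 1019 FPKM in the DAB2IP O/E-labelled libraries, against 916, 968 and 1001 FPKM in the empty vector libraries, and did not pass (limma, adjusted p = 0.187). Its copies summed to 2660, 2939 and 2662 FPKM, against 2228, 2364 and 2522 FPKM in the empty vector libraries, or 253% of the parent over all libraries. The 2 strongest copies, EEF1A1P5 and EEF1A1P6, had log2 ratios of 0.15 and 0.23, near the 0.14 of the parent, and did not pass in limma. In the authors' deposited table EEF1A1P6 had an adjusted p of 0.00344, in the same direction, against 0.0683 for EEF1A1P5 and 0.0819 for EEF1A1. The 8 that passed were 89.1 to 96.5% identical and had log2 ratios of 0.32 to 0.81. EEF1A1P1, whose stretch is printed with 6 differences, had the largest. It was at 0.744, 0.673 and 0.569% of the parent in the DAB2IP O/E-labelled libraries, against 0.304, 0.482 and 0.463% in the empty vector libraries. The count of 8 became 0, 0, 1, 6, 0 and 10 in the refits without 1 library.

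NPM1, the gene of nucleophosmin, also had 26 tested copies, of which 14 lay above 0 (8 without the first empty vector library) and 0 passed in limma or limma-voom, with 4 at an unadjusted p under 0.05. Their median log2 change was 0.0049, which became -0.02 when the library medians were set equal. The best match of NPM1P5, NPM1P9, NPM1P12, NPM1P18, NPM1P19 and NPM1P26 was CLEC2D rather than NPM1. NPM1 itself had a log2 change of -0.20 and an adjusted p of 0.0625 in limma, against 0.0261 in limma-voom, 0.0452 with the library medians set equal and 0.0493 without the second DAB2IP O/E-labelled library. In the authors' deposited table the adjusted p of NPM1 was 0.00919, in the same direction. RPL12 had 25 copies, 15 above 0 and 0 past the limma test, with 5 at an unadjusted p under 0.05 and 1 past limma-voom. RPSA, the gene of a small ribosomal subunit protein also known as the laminin receptor, had 21, with 13 above 0 and 1 past the test (5 without the third empty vector library, 0 without any other library). HNRNPA1, an RNA-binding protein gene, had 19 copies, of which 16 lay below 0 and 2 fell, HNRNPA1P12 and HNRNPA1P52. HNRNPA1P12 had 8.16, 7.96 and 8.06 FPKM in the DAB2IP O/E-labelled libraries, against 9.96, 9.29 and 9.69 FPKM in the empty vector libraries. HNRNPA1P12 lost its call without the third DAB2IP O/E-labelled library and HNRNPA1P52 in 5 refits, and limma-voom called 0 of the 19. FTH1, an iron storage gene, had 14 copies, of which 13 lay below 0. In limma 0 passed, 4 were at an unadjusted p under 0.05, and 6 passed lower without the third empty vector library. By limma-voom 2 were called lower. The authors' deposited table gave FTH1P8 an adjusted p of 0.0127, in the same direction. FTH1P5 had 121, 111 and 100 FPKM in the DAB2IP O/E-labelled libraries, against 183, 150 and 115 FPKM in the empty vector libraries, where the spread between libraries was wide.

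**Figure D3:**
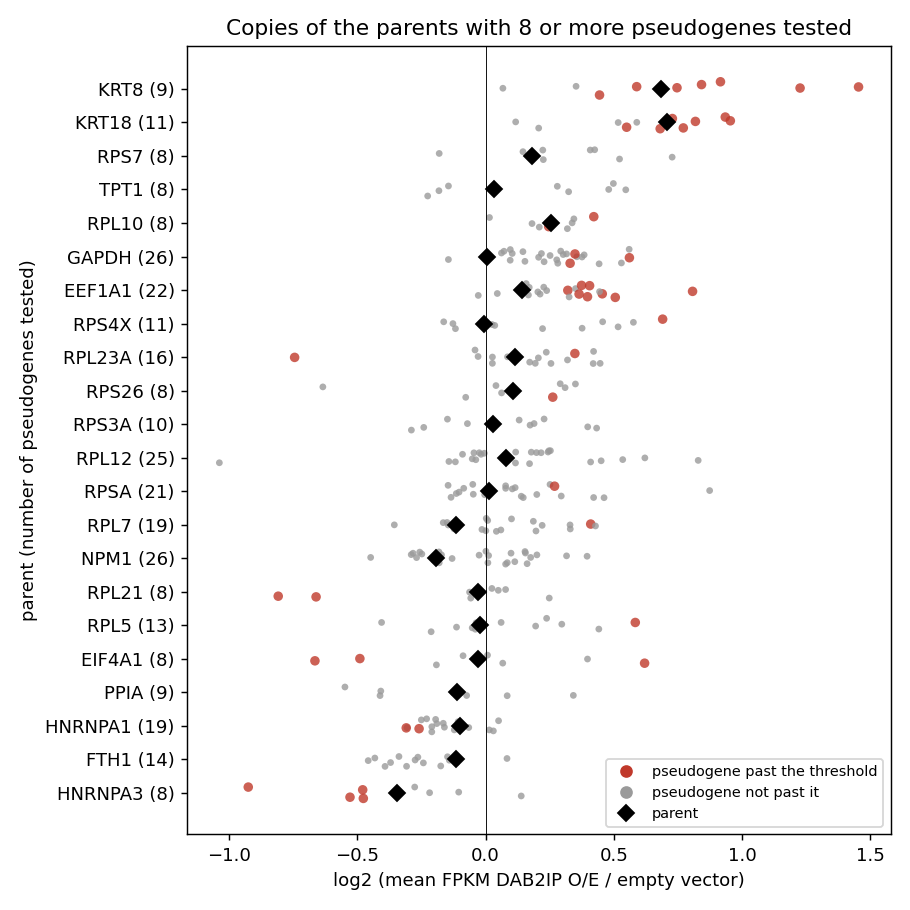
Log2 ratio of group mean FPKM (DAB2IP O/E over empty vector) for the 22 parents with 8 or more tested pseudogenes (black diamonds) and for each pseudogene (circles, red where it passed the test), ordered by the median copy. The copies of KRT8 and KRT18 lie at the top with their parents, those of HNRNPA3 at the bottom, and 25 of the 26 copies of GAPDH lie to the right of 0 beside a parent at 0.01.

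Several copies rose while the parent did not pass the test. ELOBP1, a copy of the elongin B gene, had 8.80, 7.46 and 8.57 FPKM in the DAB2IP O/E-labelled libraries, against 3.37, 4.57 and 5.04 FPKM in the empty vector libraries, a log2 change of 0.81 ± 0.12 (SE; limma, adjusted p = 0.00642). ELOB had a log2 change of 0.34 ± 0.10 and an adjusted p of 0.0626 in limma, against 0.00721 in the authors' deposited table, in the same direction. RPL17P36 and RPL37P4, copies of ribosomal protein genes, rose with log2 ratios of 0.69 and 0.78, beside 0.06 for RPL17 and -0.06 for RPL37. RPL37P4 is only 85.2% identical to RPL37, and none of its 50-base windows is found in the parent. EIF1P3, PFN1P1, SUMO2P1, ATP5LP2 and ACTBP8 rose in the same way beside EIF1, PFN1, SUMO2, ATP5L and ACTB. Of these 8 copies, ELOBP1, RPL17P36 and RPL37P4 passed in all 6 refits, EIF1P3 and PFN1P1 in 5, SUMO2P1 and ATP5LP2 in 2 and ACTBP8 in 1. In the authors' deposited table RPL37P4, EIF1P3, PFN1P1, SUMO2P1 and ACTBP8 had adjusted p-values of 0.0739 to 0.154. ELOBP1, RPL17P36 and ATP5LP2 were below 0.05 there.

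The copies that fell away from a parent included RPL21P11, LDHAP7, HNRNPUP1 and UBBP2. RPL21P11 had 2.88, 2.87 and 3.78 FPKM in the DAB2IP O/E-labelled libraries, against 6.12, 5.82 and 4.75 FPKM in the empty vector libraries, a log2 change of -0.65 ± 0.11 (SE; limma, adjusted p = 0.0104) that held in all 6 refits. RPL21 had 189, 197 and 184 FPKM, against 183, 203 and 196 FPKM in the empty vector libraries. The copy is 98.3% identical to RPL21 and was at 1.45 to 2.05% of its level in the DAB2IP O/E-labelled libraries and 2.42 to 3.34% in the empty vector libraries. LDHAP7, a copy of the lactate dehydrogenase A gene, had 9.51, 8.97 and 8.56 FPKM in the DAB2IP O/E-labelled libraries, against 17.0, 17.2 and 11.95 FPKM in the empty vector libraries. Its log2 ratio was -0.77, beside -0.21 for LDHA, which did not pass (limma, adjusted p = 0.0557). HNRNPUP1 had a log2 ratio of -0.81, beside -0.22 for HNRNPU. The authors' deposited table gave LDHA and HNRNPU adjusted p-values of 0.00682 and 0.00789, both higher in the empty vector libraries. UBBP2, a copy of the polyubiquitin gene UBB, had a log2 ratio of -0.85 beside -0.01 for UBB, from 7 to 16 reads per library. NDUFB4P2, 85.2% identical to the complex I subunit gene NDUFB4, had a log2 ratio of -1.21 beside -0.18 for the parent, which also fell. It rests on 11 to 24 reads per library. LDHAP7 lost its call without the third DAB2IP O/E-labelled library, NDUFB4P2 without the first, UBBP2 without the second empty vector library, and HNRNPUP1 in 3 refits. SEPT14P2, on chromosome 2, had 2.58, 2.08 and 3.04 FPKM in the DAB2IP O/E-labelled libraries, against 8.22, 4.95 and 4.82 FPKM in the empty vector libraries. Its parent, the septin gene SEPT14, had a mean of 0.0175 FPKM. SEPT14P2 overlaps an exon of LINC01881, whose log2 ratio was -0.43 (limma, adjusted p = 0.067). The call of SEPT14P2 ended without the first or the second DAB2IP O/E-labelled library.

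Within 5 families copies passed in both directions. RPL35P2 had a log2 ratio of 0.82 and RPL35P5 one of -0.45, beside 0.11 for the ribosomal protein gene RPL35. The 2 copies are 96.4% and 96.2% identical to it. UBBP1 rose, with a log2 ratio of 0.40, while UBBP2 fell. HSPE1P11 had 0.70 and HSPE1P4 had -0.56, beside -0.23 for HSPE1, the gene of a mitochondrial co-chaperonin. EIF4A1P3 had 0.62, whereas EIF4A1P1 had -0.67 and EIF4A1P4 had -0.49, beside -0.03 for the helicase gene EIF4A1. RPL23AP18 had 0.35 and RPL23AP57 had -0.74, beside 0.12 for RPL23A. These 11 calls were weak: each was lost in 1 to 6 of the 6 refits without 1 library, UBBP2 in 1 and EIF4A1P3 in all 6.

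The members with no parent by name behaved in a similar way once they were paired with their best match in sequence, a pairing chosen after the data were seen. Of 700 such pairs, 457 (65.3%) moved in the same direction as the matched gene, and where both passed, 19 of 19 did. AC139085.1, on chromosome 18, had 24.1, 26.1 and 29.2 FPKM in the DAB2IP O/E-labelled libraries, against 9.64, 13.7 and 13.96 FPKM in the empty vector libraries, the second-largest rise among the members on the log2(FPKM + 1) scale (1.05 ± 0.14, SE; limma, adjusted p = 0.00415). Its best match is RPS3 at 92.4%, the parent of RPS3P6. AL391422.1, best matched to the mitophagy receptor gene FUNDC1 at 86.7%, had 1.91, 1.75 and 1.73 FPKM, against 0.575, 0.624 and 0.485 FPKM in the empty vector libraries. AC069499.1 had no match among protein-coding transcripts and fell the furthest of the calls on that scale, with 2.08, 2.52 and 2.34 FPKM, against 6.596, 5.34 and 4.57 FPKM in the empty vector libraries (log2 change -0.96 ± 0.12, SE; limma, adjusted p = 0.003). AL117339.3 rose and AC012005.1, AC022034.3 and AL356653.1 fell, from 1 to 38 reads per library, and each lost its call in 3 or more refits.

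Counted by what the parents do, with groups drawn up while earlier results of these data were known, copies of cytosolic ribosomal protein genes were the most numerous. Of their 274 tested pairs, of 57 parents, 25 copies rose and 4 fell, and their median log2 ratio was 0.20 beside 0.11 for the parents. Without single libraries, in the order given for the keratins, 12, 5, 3, 17, 11 and 65 of them rose. Among copies of translation factor genes 13 of 74 rose and 2 fell, and without single libraries 1, 2, 1, 8, 1 and 18 rose. Of 79 copies of RNA-binding protein genes, 0 rose and 8 fell (2, 2, 0, 7, 1 and 14 without single libraries), and of 44 copies of chromatin and acidic nuclear protein genes 2 rose and 4 fell. Copies of cytoskeletal genes had 5 of 23 higher and 0 lower, copies of mitochondrial protein genes 1 of 42 higher and 3 lower, and copies of proteasome and ubiquitin genes 3 of 23 higher and 2 lower. Of 40 copies of glycolytic enzyme genes, 3 rose and 1 fell, and of 30 copies of chaperone and cyclophilin genes, 1 rose and 3 fell. Without single libraries, in the same order, 2, 2, 1, 4, 3 and 4 cytoskeletal copies rose, 0, 1, 0, 1, 0 and 4 glycolytic copies rose, and 0, 0, 0, 2, 2 and 4 chaperone and cyclophilin copies fell. Chromatin copies that fell numbered 2 to 5, mitochondrial ones 1 to 3, and proteasome and ubiquitin copies that rose 0 to 3. Of 11 copies of cell cycle genes and 18 of ferritin and annexin genes 0 passed in limma. At an unadjusted p under 0.05 were 1 and 5, and limma-voom called 0 and 3. The authors' deposited table gave adjusted p-values of 0.00977 for ANXA2P3, lower in the empty vector libraries, and 0.0127 for FTH1P8, higher there. With 18.5% of all genes past the test, the shares for keratins (66.7%) and fatty acid binding proteins (2 of 2) stood above the background. This is a description only, since they are copies of 3 and 1 parents and may hold the parents' reads. FABP5P1 and KRT8P51 were under 1 FPKM in every empty vector library, so they passed the filter through the other group. With no filter on low values 7 of the 21 keratin copies rose. The shares for translation factors, cytoskeleton and proteasome and ubiquitin (20.3 to 21.7%) were near the background. Below it were ribosomal (10.6%), RNA-binding (10.1%), mitochondrial (9.52%) and chromatin and acidic nuclear proteins (13.6%). Glycolytic enzymes (10.0%) and chaperones and cyclophilins (13.3%) were below it too. The RNA-binding copies that passed all fell, and 9.17% of all genes fell. Without single libraries 5, 10, 6, 10, 9 and 8 of the 21 keratin copies rose.

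The level of a copy relative to its parent went with its identity. The 145 copies under 90% identical had a median level of 1.37% of the parent, those from 90 to 95% 2.31%, those from 95 to 98% 8.36% and the 144 copies of at least 98% identity 35.6%. The share of pairs moving in the same direction differed little between these 4 classes, at 67.6, 68.5, 69.2 and 69.4%. Spearman's rank correlation of the log2 ratios of copy and parent was higher in the closer classes, at 0.43, 0.54, 0.55 and 0.61. The median absolute difference between the log2 ratios of copy and parent was 0.26, 0.18, 0.16 and 0.11, and the median reads per library were 50, 59, 123 and 259, so the closest copies were also the most deeply measured. Copies in which none of the 50-base windows occurs in the parent numbered 158, and 112 of them (70.9%) moved in the parent's direction. Their Spearman rank correlation was 0.40, against 0.69 for copies with over 50% of their windows in the parent. In 23 pairs the copy was above the parent, led by SEM1P1 at 352% of SEM1, EIF4EP2 at 251% of EIF4E, RPS15AP1 at 223% of RPS15A and HMGB1P6 at 206% of HMGB1. Of these 23, HMGB1P6 and UBE2SP1 fell and FABP5P7 rose. HMGB1P6 kept its call in 1 and UBE2SP1 in 2 of the 6 refits without 1 library, and FABP5P7 in all 6.

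**Figure D4:**
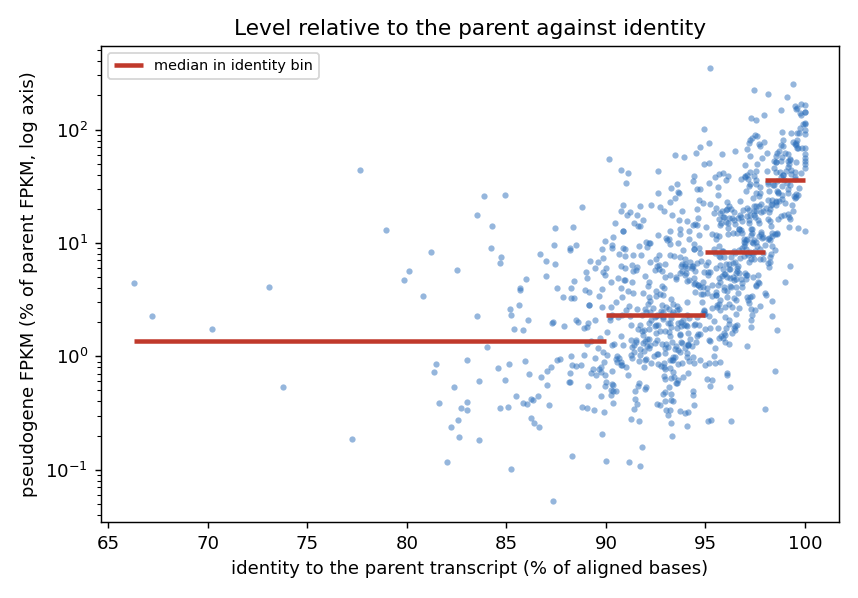
Mean FPKM of each pseudogene as a percentage of its parent's (y, log axis) against its identity to the parent transcript over aligned bases (x), 1 point per pair; red bars are the medians of 4 identity classes. The medians climb from 1.37% below 90% identity to 35.6% at 98% and over.

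As a whole the copies lay a little above their parents in the DAB2IP O/E-labelled libraries. For each of 939 pairs with no library at 0, the log2 ratio of copy to parent was centred on its mean over the 6 libraries. The median deviation was 0.06, 0.05 and 0.06 in the 3 DAB2IP O/E-labelled libraries, against -0.12, 0.01 and -0.02 in the empty vector libraries. The first empty vector library lay below all others, most in the copies under 90% identical (-0.23) and least in those of at least 98% (-0.04). The median difference between groups was 0.09, and 0.05 without that library. Leaving out any other single library gave 0.087 to 0.121. The copy-to-parent ratio was higher in every library labelled DAB2IP O/E than in every empty vector library for 195 pairs and lower for 52. That library is also the one with the fewest reads, and the effect of this on the ratios was not tested.

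**Figure D5:**
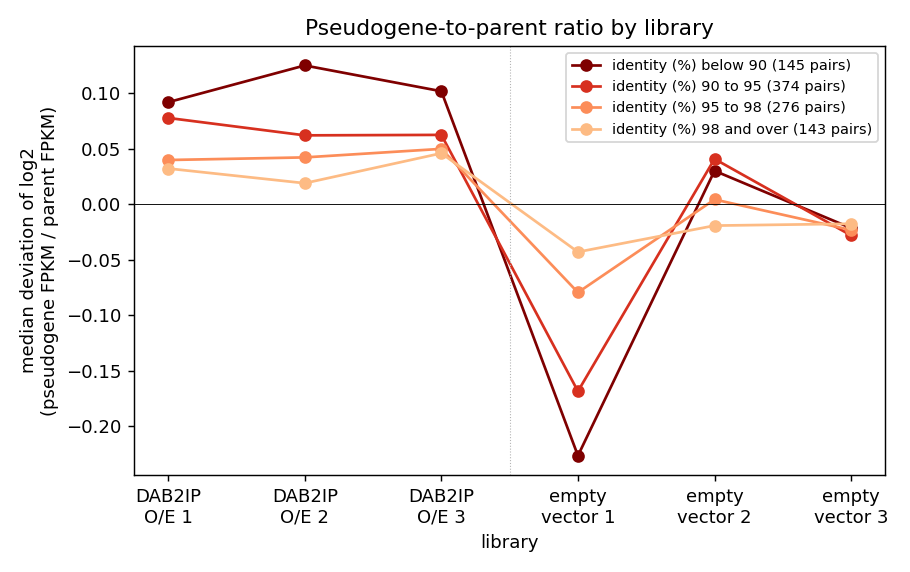
Median deviation of the log2 pseudogene-to-parent ratio from its mean over the libraries (y) in each of the 6 libraries (x, DAB2IP O/E left, empty vector right), with a line for each identity class. The first empty vector library lies lowest in every class, from -0.23 below 90% identity to -0.04 at 98% and over.

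Many copies overlap other genes. Of the tested members, 282 overlapped a gene on the same strand (the host), 231 of them in an intron and 50 touching an exon, and 449 overlapped a gene on the opposite strand. For 182 members with a tested host on the same strand, 94 (51.6%) moved in the host's direction, with a Spearman rank correlation of 0.12 across pairs. Of the 89 members with both a tested parent and a tested host, 55 lay on the parent's side of 0 and 47 on the host's. For 284 members with a tested gene on the opposite strand, 123 (43.3%) moved with it. Among the named copies, TCEA1P2 lies in an intron of GOLGA4 (log2 ratio -0.34, adjusted p = 0.0657 in limma), and MRPL35P3, which fell, overlaps an exon of ADK, which had a log2 ratio of 0.27. MRPL35P3 kept its call in 3 of 6 refits without 1 library and lost it in limma-voom. SLC2A3P1 fell with PANK3, whose exon it overlaps (log2 ratios of -0.31 and -0.29), while its parent, the glucose transporter gene SLC2A3, was at 0.00872 FPKM. The call of SLC2A3P1 ended in 3 of 6 refits without 1 library, where its adjusted p reached 0.0928 in limma.

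In the authors' deposited table an adjusted p under 0.05 was given for 153 of the 2437 members that have one, and for 19.0% of all such genes. Of these, 112 were lower and 41 higher in the empty vector libraries, and 103 were among the 196 called here. Below the filter of 1 FPKM 3 members were below 0.05 in the authors' deposited table: FABP5P2, TMED10P2 and CPSF1P1. TMED10P2, a copy of a gene of vesicle transport, had 7, 4 and 1 reads in the DAB2IP O/E-labelled libraries, against 14, 10 and 15 reads in the empty vector libraries. CPSF1P1, a copy of a gene of mRNA 3′ end processing, had 118, 83 and 71 reads, against 29, 43 and 59 reads in the empty vector libraries.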

How the data were processed

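Per the labels' protocols, poly-A RNA of OVCAR3 cells was made into libraries with a stranded kit. The authors deposited FPKM per gene and library. Their second deposited table holds, per the file headers, a signal (the mean normalised count over libraries), a log2 fold change, its test statistic, here treated as a score, and raw and adjusted p-values. Per the submitters' processing notes, which give no roles or order, R 3.3.1, DESeq2 1.12.4, Bowtie, TopHat2 2.1.1 and Trimmomatic 0.32 were used with GRCh38.p5 and hg19. Not given in the sources used here are the counting tool, the treatment of reads with several matches and whether strand was used, so copies near-identical to a parent, overlapping genes and antisense genes are uncertain. Identifiers of 25344 genes had the same version in GENCODE 29 (GRCh38), and all 25344 had the same coordinates there, including 4145 members.

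FPKM times the deposited mean normalised count, divided by the gene's mean FPKM and by 1 constant per library, gave whole reads within 0.01 reads for 100% of nonzero values under 2000 reads. Intervals from these reads would cover counting error only. The test was limma 3.58.1 (R 4.3.3; lmFit, eBayes with trend, 2-sided) on log2(FPKM + 1), which understates the changes of low genes. Genes whose mean over the 6 libraries reached 1 FPKM entered, with p adjusted by Benjamini-Hochberg over 14761 genes, threshold 0.05, and tested on simulated data. FPKM are not read counts, so the test on reads (limma-voom) is an alternative. Identity and best matches came from BLAST 2.17.0 against GENCODE 29 transcripts (E-value limits of 1e-05 and 1e-10). Printed stretches were those whose number of differences lay nearest the copy's overall identity among those sharing no 25 bases with a transcript of chromosome 8. The text names the 10 members highest in level, the 10 largest rises and 10 largest falls, pairs called in opposite directions, the 6 parents with most copies and up to 4 pairs per parent group; others were chosen after their values were seen. Members and lists were chosen with earlier results of these data known. The labels give no pairing of libraries, so the main fit has no block. Correlations of the deviations of same-numbered libraries were 0.12, 0.10 and 0.06. All lay above those of differently numbered libraries (-0.12 to 0.02), so a pairing is not excluded, and a fit with a replicate block is given below. 1 family that did not follow its parent is not reported here.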

Additional observations from a re-analysis of the deposited data

How the results depend on the processing

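Of the processed pseudogenes, 136 were called higher and 60 lower, and none of the 196 changed sign in any refit. In all 196 the groups did not overlap, so leaving out 1 library or changing the pseudocount could not reverse the sign. Nothing is read from the kept signs in those refits. Leaving out 1 library moved the higher calls between 44 and 220 and the lower calls between 20 and 97, the pairs of the same sign between 63.8 and 70.6%, those among parents that passed (86.3%) between 82.6 and 96.6%, the median difference of pseudogene and parent log2 changes (0.08) between 0.046 and 0.106, and the pairs called in opposite directions between 0 and 4. With no filter on low values 62.9% of pairs, and 75.4% of those whose parent passed, had the same sign, and the median difference was 0.056. With a filter of 5 FPKM 39 were called lower and 73.1% had the same sign. With library medians set equal 79.8% of pairs whose parent passed had the same sign and 1 pair was called in opposite directions; the share of higher calls went to 62.7%, against 69.4%, and the median log2 change of all genes was -0.03, against -0.0004. With limma-voom on recovered reads 158 were called higher and 47 lower, and 79.5% of pairs whose parent passed had the same sign. Below 90% identity the median difference was 0.155. Members without a parent by name, paired with their best match, had the same sign in 65.3% of pairs, and in 77.8% where the match passed. With the replicate block, set by the number in the label, 151 were called higher and 59 lower. Of the 196 calls, 143 were shared with that fit, 147 with limma-voom, 109 with the filter of 5 FPKM, 97 with no filter and 59 to 162 with the fits without 1 library. The cause of these shifts was not tested, except that fewer libraries were fitted when 1 was left out. With the pseudocounts of 0.1 and 0.5 FPKM and with no trend 186, 194 and 180 of the 196 calls were kept.

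Uncalled genes near 0 changed sign. With library medians set equal the log2 changes were -0.019 for AC090498.1, -0.020 for GAPDH, -0.015 for PFN1, -0.023 for CDC42 and -0.010 for RPSA. With limma-voom they were 0.020 for AC074033.1, 0.0084 for UBB, 0.016 for SUMO2 and 0.0023 for ANXA2. Without 1 library they ran from -0.037 to 0.040 for AC074033.1, -0.17 to 0.0082 for FTH1, -0.076 to 0.078 for AC090498.1, -0.071 to 0.0046 for RPL21, -0.032 to 0.039 for GAPDH, -0.035 to 0.036 for PFN1, -0.036 to 0.064 for ATP5L, -0.052 to 0.020 for UBB, -0.032 to 0.016 for SUMO2, -0.053 to 0.053 for CDC42, -0.053 to 0.028 for ANXA2 and -0.017 to 0.065 for RPSA. Of 54 named pseudogenes past the threshold, 17 passed in all 6 refits without 1 library. The median tested member had 70.75 reads per library, and the part of depth in the lost calls was not tested.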
